A study of Homo sapiens with 12 samples.

Results

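The experiment described here is the tetracycline treatment of a HEK cell line that carries an inducible TRPM7 without its kinase domain. HEK is a line of human embryonic kidney cells with both epithelial and neuronal traits. It comprises 6 of the 12 arrays of the series, namely all 3 with tetracycline and all 3 without it from this mutant line. The arrays were selected by their labels alone, and no measured value entered the choice. The mutant transgene, named TRPM7DKD by the submitters, lacks the whole C-terminal kinase domain and was regarded by them as nonfunctional. Its tetracycline-inducible expression system is present in untreated and treated cells alike, and both were grown in 5 ug/mL blasticidin. Treated cells received 1 ug of tetracycline, with no volume given, for 72 h. Untreated cells received 0 ug. The second line, used only for comparison, carries inducible full-length (WT) TRPM7 and contributes 3 untreated and 3 treated arrays. Each line is a stable line, the number of clones behind it is not given in the sources used here, and a line of untransfected cells with tetracycline is not analysed here. The contrast therefore holds the inducer and the induced mutant protein together, and both cannot be told apart. Whether replicate samples were grown as separate cultures is not stated in the labels, and p-values therefore measure only the spread between these samples, which may be technical.

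TRPM7 is a magnesium-, calcium- and zinc-permeable channel of the plasma membrane and intracellular vesicles that is fused to a serine/threonine kinase. According to the submitters' design, strong expression of the intact channel damages and kills HEK cells, and the mutant line addresses the question of how far the inducer and a nonfunctional channel alter transcription by themselves. Tetracyclines block bacterial ribosomes and, at sufficient dose, the related mitochondrial ribosomes of animal cells. One pathway described below is the integrated stress response, chosen with earlier results of these data known. In it, kinases that sense amino acid shortage, unfolded protein, haem loss or viral RNA phosphorylate the initiation factor eIF2, which lowers general translation while favouring translation of the transcription factor ATF4. ATF4 pairs with C/EBP proteins and switches on genes for amino acid synthesis, amino acid uptake and tRNA charging, as well as its own feedback regulators such as TRIB3, CHAC1 and PPP1R15A. C/EBP-ATF dimers bind a composite element whose core reads TGATGNAA.

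The promoter sequences below show that element in genes of the pathway that were on the array, so that the expression values can be read beside the letters. They are taken from RefSeq on GRCh38.p14, run 5′ to 3′ on the gene's own strand, and carry the match in capitals. A match on the opposite strand appears as TTNCATCA. For ATF3, a stress-induced transcription factor (chr1:212565157-212565406, plus strand), and CHAC1, a glutathione-degrading enzyme (chr15:40953221-40953470, plus strand), the 250 bases before the transcription start are given. These genes were chosen for full print because they had a match and all their treated arrays lay above the untreated ones.
ATF3: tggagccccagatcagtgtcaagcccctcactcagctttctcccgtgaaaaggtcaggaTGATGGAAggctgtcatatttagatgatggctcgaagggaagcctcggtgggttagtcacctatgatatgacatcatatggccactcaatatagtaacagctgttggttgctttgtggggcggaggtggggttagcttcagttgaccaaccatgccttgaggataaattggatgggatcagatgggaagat
CHAC1: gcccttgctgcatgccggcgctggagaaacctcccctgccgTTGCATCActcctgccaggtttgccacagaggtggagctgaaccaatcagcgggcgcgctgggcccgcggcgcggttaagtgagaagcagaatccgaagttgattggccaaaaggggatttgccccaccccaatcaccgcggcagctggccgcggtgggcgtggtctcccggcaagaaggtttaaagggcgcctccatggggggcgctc

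The other matches among the measured members of 4 gene lists (stress regulators, amino acid synthesis, amino acid transporters and aminoacyl-tRNA synthetases) are shown with 28 bases around each. They belong to PPP1R15B, the constitutive partner of the eIF2 phosphatase, to the transaminase GOT1, to the transporters SLC7A1, SLC1A5 and SLC38A1, and to the synthetases for alanine (AARS1), isoleucine (IARS1) and asparagine (NARS1). In SLC7A1 and NARS1 the match lies after the transcription start.
PPP1R15B (chr1:204412027-204412054, minus strand): ccgccccggcTGATGCAAcctcacgctg
GOT1 (chr10:99430805-99430832, minus strand): attgcattggTTGCATCAttctcggcag
SLC7A1 (chr13:29595664-29595691, minus strand): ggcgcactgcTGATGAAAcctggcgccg
SLC1A5 (chr19:46784894-46784921, minus strand): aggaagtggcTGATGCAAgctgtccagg
SLC38A1 (chr12:46266503-46266530, minus strand): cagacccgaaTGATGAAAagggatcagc
AARS1 (chr16:70289676-70289703, minus strand): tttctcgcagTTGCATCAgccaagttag
IARS1 (chr9:92293693-92293720, minus strand): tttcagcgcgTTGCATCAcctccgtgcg
NARS1 (chr18:57621805-57621832, minus strand): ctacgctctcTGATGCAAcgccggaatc
Both strands of windows from 250 bases before to 50 after the start, 300 bases in all, were searched. Only 1 window per gene was used, the first by position where a gene had several, so other starts of a gene were not searched. The 8-base core was found in 3 of 18 stress regulators with a window, 1 of 11 synthesis enzymes, 3 of 13 transporters and 3 of 14 synthetases. Among the 12 genes named below as higher with tetracycline, it was found in 1 (ATF3) of 9 with a window. For the 12 named as lower, it was found in 0 of 10. It was present in 175 of 10092 measured genes with a window (1.73%) and in 1024 of all 27305 windows (3.75%). A match is a description of these letters and not a site shown to be bound. The core was in 0 of 13 annexin and S100 windows, a count that says little because at these shares 13 windows would seldom hold a match.

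Signals were compared as log2 values. A fold change is the mean of the 3 treated arrays minus that of the 3 untreated arrays on that scale, with a standard error (SE) from limma, which was fitted to the 6 arrays of the mutant line alone. A probe set is a group of short probes against 1 transcript region, and all 54613 probe sets outside the array's own controls were tested. No probe set passed a Benjamini-Hochberg adjusted p of 0.05 in limma fitted without a replicate block (0 of 54613, 0.0%). At an unadjusted p of 0.05 there were 3369 probe sets (6.17%), of which 1698 were higher and 1671 lower with tetracycline. The smallest adjusted p was 0.0738, shared by 6 probe sets, which belong to EMP3, HSPB8, INHBE, PPP1R15A, RPS15A and KPNB1. The values of this line given below therefore did not pass that test across all probe sets. Those 6 were the only probe sets under 0.1.

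The spread between replicates was small in this line. Probe sets were kept where their mean over the 6 mutant arrays exceeded the median of the whole table (6.39 on the log2 scale). Among these the median SD was 0.160 in untreated and 0.177 in treated mutant cells. In the WT line, whose arrays the filter did not use, it was 0.283 and 0.310. In the same 26800 probe sets, 69 differed by at least 1 log2 unit with tetracycline in the mutant line and 2791 did so in the WT line. The 3 treated arrays all lay above the 3 untreated ones, here called no overlap, in 3152 probe sets (5.77%), and all lay below them in 3049 (5.58%). The log2 3′ to 5′ ratio of beta-actin was 0.250 ± 0.034 untreated and 0.268 ± 0.019 treated (SD, n = 3). That of GAPDH was 0.079 ± 0.050 and 0.070 ± 0.027. Exact permutation p-values were 0.5 and 0.8, 2-sided, where 0.1 is the smallest possible. The 18S signal was 5.88 on treated replicate 2 and between 6.89 and 7.36 on the other arrays. Replicate 3 of both groups had the lowest poly-A spike signals (8.46 untreated, 8.55 treated, against 9.06 to 9.17 elsewhere), and these 2 arrays were the closest pair of the 6, with a median absolute log2 difference of 0.323. Because every array was scaled to the same mean signal, fewer cells of a type and less RNA per cell cannot be told apart.

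The cells expressed markers of HEK cells. Of 12 HEK kidney and neural markers on the array, 11 were above the table's median, led by vimentin (VIM), the neurofilament NEFL and the keratins KRT18 and KRT8, and LHX1 (6.11 ± 0.25 untreated) was below it. Their summed log2 signal was 15.76 to 15.83 in untreated and 15.89 to 16.02 in treated arrays. KRT8, KRT18, VIM and NEFM were higher and CDH2 lower without overlap. Of 5 blood and immune markers only HBB was above the median (summed log2 signal 7.89 to 8.13 untreated, 7.16 to 8.63 treated), and of 10 fibroblast and endothelial markers only COL1A1 and PECAM1 were (9.93 to 10.08 and 9.88 to 10.32). The defining genes PTPRC, CD3E, CDH5 and VWF were all below it in both groups. The part of these markers in the gene values was not tested.

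TRPM7 itself is covered by 5 probe sets, and none of them was higher in the treated mutant cells without overlap. The brightest, 223324_s_at, read 8.45, 8.47 and 8.25 untreated and 8.53, 8.04 and 7.99 with tetracycline (log2 fold change -0.20 ± 0.18, SE; adjusted p = 0.92), and the groups overlapped. 223323_x_at read 8.11, 8.16 and 7.92 untreated and 7.53, 7.10 and 7.14 treated, a log2 fold change of -0.80 ± 0.21 with an adjusted p of 0.611 and no overlap. 239484_at was also lower without overlap (7.30, 6.80 and 6.41 against 5.07, 6.13 and 5.61; log2 fold change -1.24 ± 0.44, adjusted p = 0.726). In the WT line this last probe set was lower without overlap too (-2.00 ± 0.73), whereas 223323_x_at had a log2 fold change of 0.11 ± 0.74. The remaining probe sets, 231689_at and 237884_x_at, were dim, and their groups overlapped. The positions of these probes relative to the transgene were not analysed here, so TRPM7 does not check which arrays were induced.

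**Figure D1:**
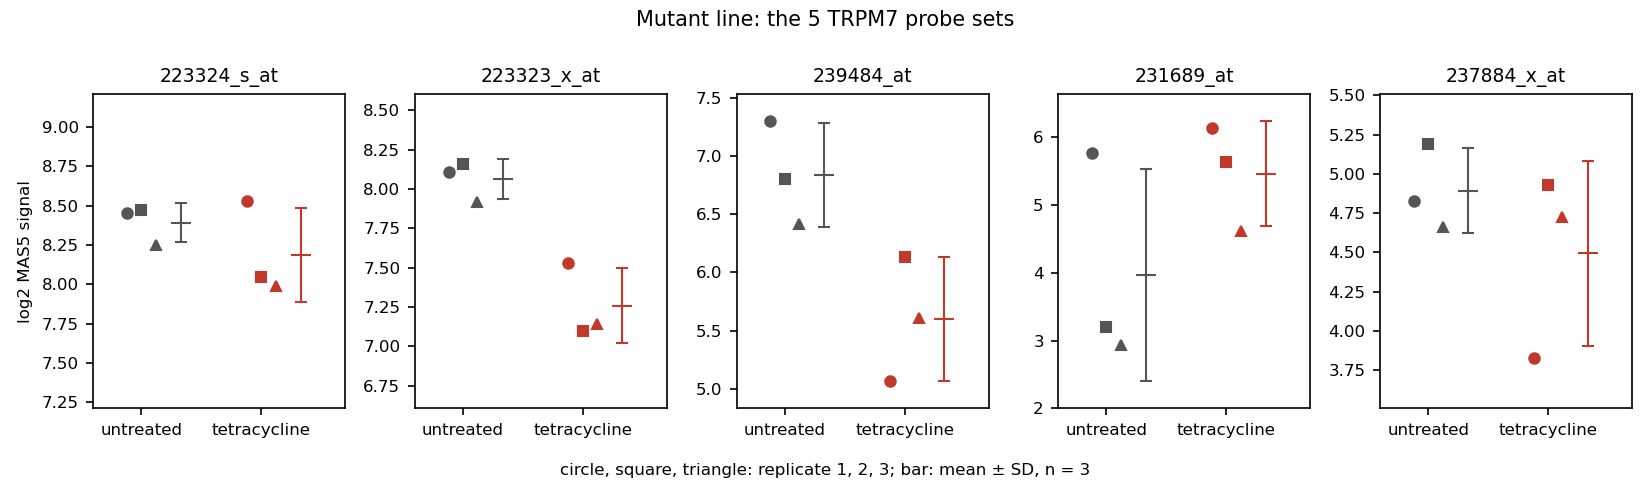
Log2 MAS5 signal (vertical axis) of the 5 TRPM7 probe sets on the 3 untreated and 3 tetracycline arrays of the mutant line, 1 panel per probe set, with the mean ± SD beside the points. In 223323_x_at and 239484_at the treated arrays lie below the untreated ones, and in the other panels the groups overlap.

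The 12 genes with the smallest p among those higher with tetracycline were EMP3, HSPB8, INHBE, PPP1R15A, CTH, TNFRSF12A, ASS1, CBX5, ASNS, SLC7A11, ATF3 and ANXA1. They were chosen by that p from this contrast, so their values are a description. PPP1R15A (GADD34), ATF3, ASNS, CTH, SLC7A11 and INHBE are known targets of ATF4 or its partners, HSPB8 is a small heat shock protein of the autophagy machinery, and EMP3, TNFRSF12A and ANXA1 are membrane or membrane-binding proteins. Log2 fold changes ran from 0.53 to 1.39, adjusted p-values from 0.0738 to 0.344, and all 12 lacked overlap between the groups.

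PPP1R15A, the stress-induced subunit that directs protein phosphatase 1 to eIF2, read 8.57, 8.53 and 8.45 untreated and 9.71, 9.53 and 9.33 with tetracycline. The treated arrays were all higher, with a log2 fold change of 1.01 ± 0.14 (SE; adjusted p = 0.0738). The gene's brightest probe set, which the gene lists use, was higher without overlap too, but by only 0.44 ± 0.14 (adjusted p = 0.698). INHBE, the beta E subunit of the secreted activin family, read 7.16, 7.54 and 7.22 untreated and 8.74, 8.77 and 8.57 treated. Its log2 fold change of 1.39 ± 0.18 (adjusted p = 0.0738) was the largest of the 12. ATF3, of which 1 promoter window is printed above, read 11.45, 11.40 and 11.32 untreated and 12.25, 11.96 and 11.79 treated, all treated arrays being higher. The log2 fold change of ATF3 was 0.61 ± 0.11 with an adjusted p of 0.344, and its other two probe sets were higher by 0.43 and 0.72 with overlap.

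Among the metabolic genes, CTH, the enzyme that releases cysteine from cystathionine, read 9.62, 9.62 and 9.42 untreated and 10.40, 10.51 and 10.20 treated (log2 fold change 0.81 ± 0.12, adjusted p = 0.1003). ASNS, which makes asparagine, read 11.98, 11.94 and 11.86 untreated and 12.69, 12.59 and 12.28 treated (0.60 ± 0.11, adjusted p = 0.319). In both enzymes every treated array exceeded every untreated one, and the third treated array was the lowest of its group. SLC7A11, the cystine-glutamate exchanger, read 9.19, 9.20 and 9.37 untreated against 9.89, 10.15 and 9.78 treated (0.69 ± 0.12, adjusted p = 0.319). Its brightest probe set differed by 0.63 ± 0.13. ASS1, argininosuccinate synthase of arginine formation, read 11.33, 11.37 and 11.30 untreated and 11.91, 11.96 and 11.71 treated (0.53 ± 0.09, adjusted p = 0.301).

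EMP3, a tetraspan membrane glycoprotein, read 9.17, 9.44 and 9.35 untreated and 10.15, 10.37 and 10.27 treated, a log2 fold change of 0.94 ± 0.11 (adjusted p = 0.0738). HSPB8 read 9.24, 9.01 and 9.07 untreated and 10.18, 10.06 and 9.88 treated (0.93 ± 0.12, adjusted p = 0.0738). TNFRSF12A, the receptor for the cytokine TWEAK, read 8.57, 8.42 and 8.17 untreated and 9.57, 9.41 and 9.28 treated (1.03 ± 0.15, adjusted p = 0.1003). In all of these the gap between the groups was wider than the range within either. ANXA1, a calcium-dependent phospholipid-binding protein, read 10.82, 11.22 and 11.20 untreated and 11.70, 11.63 and 11.69 treated (0.59 ± 0.11, adjusted p = 0.344), with the first untreated array below the others. CBX5, the heterochromatin protein HP1 alpha, was 9.90 ± 0.01 untreated and 10.46 ± 0.11 treated in its named probe set (0.56 ± 0.10), but its brightest probe set had a log2 fold change of -0.15 ± 0.10, so the gene's direction rests on which probe set is read.

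**Figure D2:**
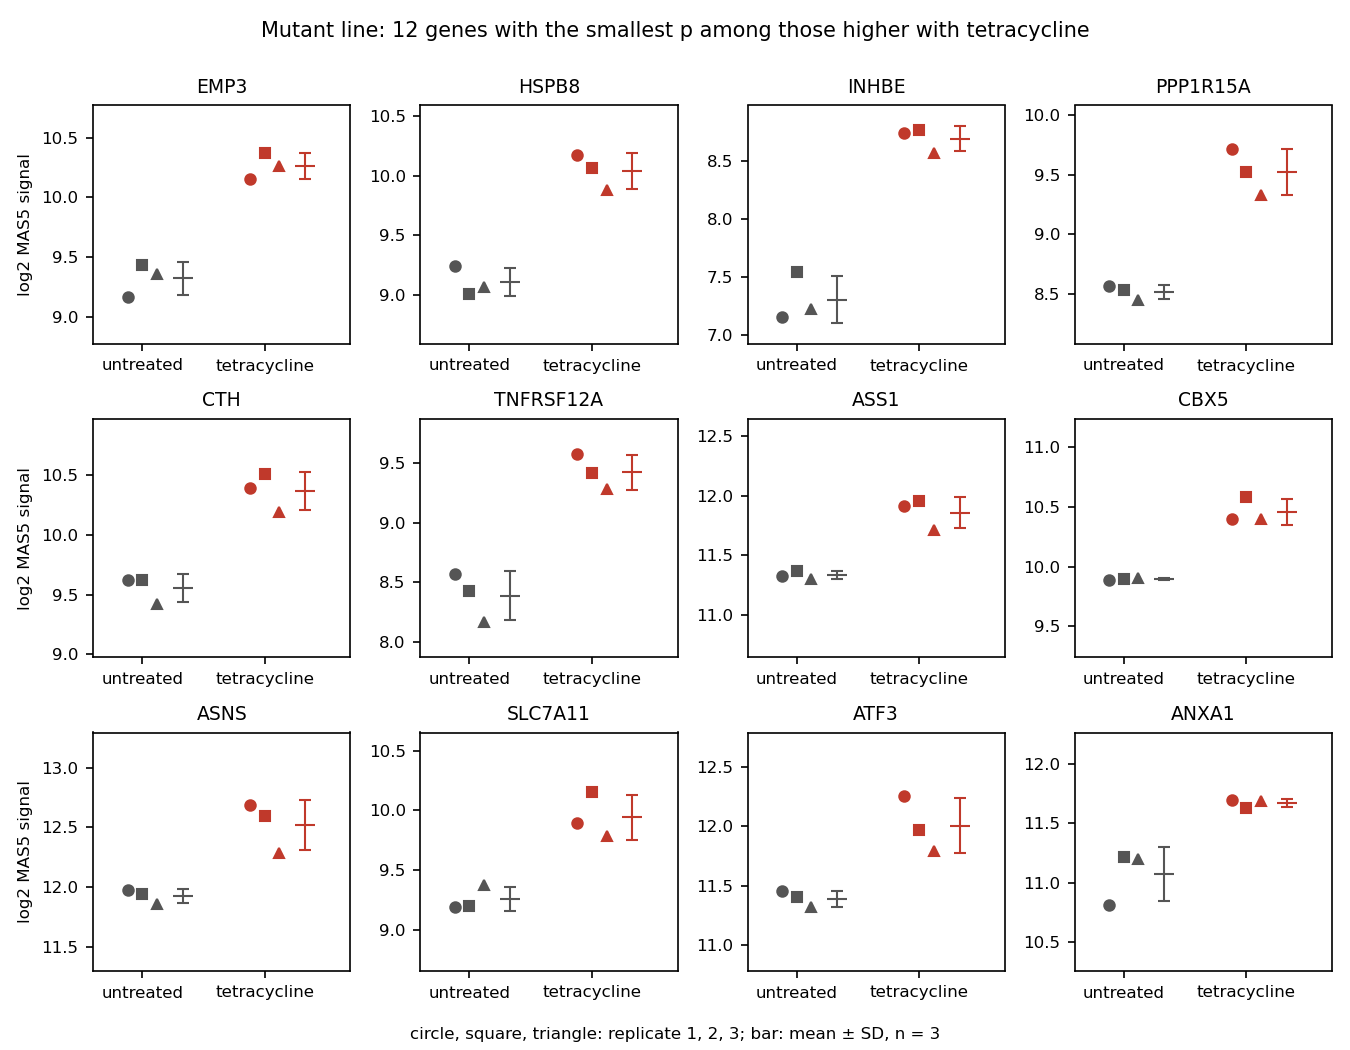
Log2 MAS5 signal (vertical axes, the same span in every panel) of the 12 genes with the smallest p among those higher with tetracycline, by array of the mutant line, with mean ± SD (n = 3). In each panel the 3 tetracycline arrays lie above the 3 untreated ones, by log2 fold changes of 0.53 to 1.39.

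The 12 genes with the smallest p among those lower with tetracycline have varied roles, and 11 of the 12 probe sets were not the brightest of the gene. RPS15A and RPS28 are ribosomal proteins, KPNB1 is the nuclear import receptor importin beta, PSMC2 a proteasome ATPase, COX7B a subunit of cytochrome c oxidase and SLC25A3 the mitochondrial phosphate carrier. HNRNPDL and RBM8A bind RNA, HSPA4 is an Hsp110-type chaperone, PTP4A2 a phosphatase, CYFIP2 a part of the actin-regulating WAVE complex and EPHA7 an ephrin receptor. Log2 fold changes ran from -1.01 to -0.47 and adjusted p-values from 0.0738 to 0.344, and the treated arrays all lay below the untreated ones in each.

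RPS15A read 9.54, 9.60 and 9.67 untreated and 8.58, 8.66 and 8.53 treated in its named probe set (log2 fold change -1.01 ± 0.12, adjusted p = 0.0738). Its brightest probe set was 15.08 untreated and 15.10 treated, a log2 fold change of 0.02 ± 0.11. KPNB1 read 11.85, 11.58 and 11.62 untreated and 10.92, 10.88 and 11.04 treated (-0.73 ± 0.10, adjusted p = 0.0738). The brightest KPNB1 probe set gave 0.04 ± 0.09, while 2 others were lower without overlap, by log2 fold changes of -0.34 ± 0.09 and -0.35 ± 0.11. The same split appeared in PSMC2 (-0.64 ± 0.10 named, 0.11 ± 0.08 brightest), SLC25A3 (-0.86 ± 0.15 and 0.12 ± 0.09), RPS28 (-0.71 ± 0.12 and 0.07 ± 0.10), HSPA4 (-0.74 ± 0.13 and 0.05 ± 0.09) and RBM8A (-0.74 ± 0.14 and 0.16 ± 0.09). In HNRNPDL the named probe set gave -0.71 ± 0.12 and the brightest 0.05 ± 0.19, and 3 other measured ones had negative values of -0.15 to -0.10, 1 of them without overlap. In COX7B, PTP4A2 and CYFIP2 the brightest probe set was lower as well, but with log2 fold changes of -0.13, -0.125 and -0.10.

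EPHA7 was the exception. All 4 of its measured probe sets were lower without overlap, and the named one, which is also the brightest, read 11.01, 10.96 and 10.98 untreated and 10.62, 10.46 and 10.46 treated (log2 fold change -0.47 ± 0.09, adjusted p = 0.344). Counted over both groups of genes, the named probe set was the gene's brightest in 9 of 12 higher genes and 1 of 12 lower genes. The lower genes had 32 other measured probe sets, of which 19 pointed the same way and 12 were lower without overlap, with a median log2 fold change of -0.13. The higher genes had 11 others, of which 8 pointed the same way and 3 were higher without overlap, with a median of 0.41.

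**Figure D3:**
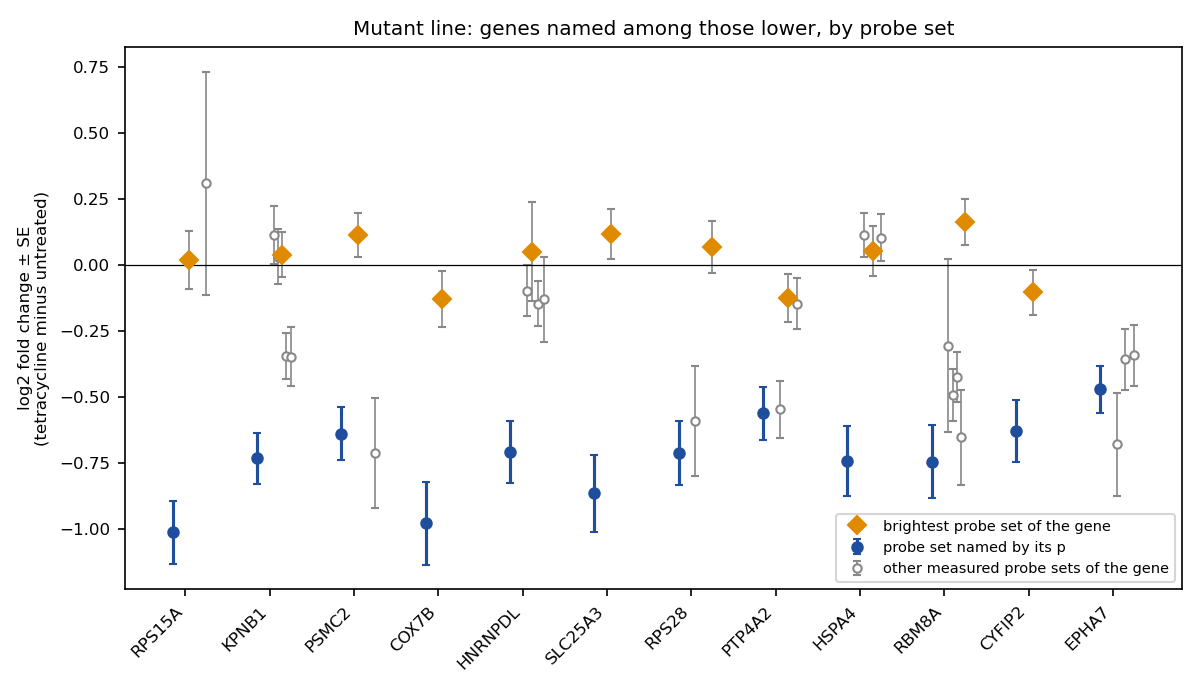
Log2 fold change ± SE (vertical axis, tetracycline minus untreated) of every measured probe set of the 12 genes named among those lower in the mutant line. The probe set named by its p lies between -1.01 and -0.47, while the brightest probe set lies between -0.13 and 0.16 except in EPHA7, where it is the named one.

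Gene lists were read with 1 probe set per gene, the brightest over all 12 arrays, and a gene counted as measured where that probe set exceeded the table's median in this line. Of 12254 measured genes, 932 (7.61%) were higher and 589 (4.81%) lower without overlap, and 551 (4.5%) and 277 (2.26%) had an unadjusted p under 0.05 in these directions. The median log2 fold change over them was 0.02. In all 28 pathway lists with measured members, 0 members passed the adjusted threshold. The median of 20 lists lay within 0.1 of 0. The other lists were stress regulators (0.26), annexins and S100 proteins (0.20), neuronal cytoskeleton (0.15), TNF and death receptors (0.13), amino acid transporters (0.11), EMP and galectin membrane proteins (0.11), amino acid synthesis (0.11), and zinc transport with metallothioneins (-0.12).

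All 20 written members of the list of stress regulators around ATF4 and DDIT3 were measured, and 17 had a positive fold change. No overlap was seen in 10 of the 20, all higher, and 12 had an unadjusted p under 0.05, all higher. The members without overlap were ATF4, ATF3, CEBPB, CEBPG, TRIB3, NUPR1, CHAC1, DDIT4, PPP1R15A and EIF2AK3. NUPR1 counted as measured only through its treated arrays, so its place in these counts is no support. Relative to each gene's mean over the untreated arrays, the list's median was 0.06, 0.02 and -0.08 on the untreated arrays. On the treated arrays it was 0.28, 0.29 and 0.17. The third array was the lowest of its group on both sides. With replicate 3 of both groups left out the median was 0.28 and 11 members had an unadjusted p under 0.05. That count was 6 without treated replicate 2, 8 without untreated replicate 3 and 13 without treated replicate 3, over medians of 0.23 to 0.29.

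CHAC1 read 7.74, 7.67 and 7.39 untreated and 9.16, 8.88 and 8.29 treated, a log2 fold change of 1.18 ± 0.22 (adjusted p = 0.344). TRIB3, a pseudokinase that restrains ATF4, read 11.30, 11.34 and 11.05 untreated and 11.59, 11.89 and 11.52 treated (0.44 ± 0.12, adjusted p = 0.611). CEBPG, an ATF4 dimer partner, read 11.39, 11.41 and 11.40 untreated and 11.71, 11.67 and 11.62 treated (0.27 ± 0.08, adjusted p = 0.649). The treated arrays of these 3 genes all exceeded the untreated ones, CEBPG with the tightest untreated group. ATF4 itself was 13.79 ± 0.16 untreated and 14.09 ± 0.15 treated (0.31 ± 0.11). DDIT3 (CHOP), the death-linked C/EBP factor of the response, was 9.48 ± 0.21 and 9.74 ± 0.26 with overlap. NUPR1, a small stress-induced chromatin protein, had a log2 fold change of 1.31 ± 0.41 from a dim 5.96 ± 0.71. That untreated mean lies below the table's median of 6.39, and only the treated mean of 7.27 brought NUPR1 past the filter.

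Amino acid synthesis enzymes were mixed, and 8 of the 15 measured had a positive value. Of the 15, 4 were higher without overlap (ASNS, PSAT1, SHMT2 and CTH) and none lower, and the list's median was 0.03 without treated replicate 2. PSAT1, the transaminase of serine synthesis, read 12.96, 13.02 and 13.02 untreated and 13.25, 13.24 and 13.23 treated (log2 fold change 0.24 ± 0.08, adjusted p = 0.698). PHGDH, the first enzyme of that route, had a log2 fold change of 0.11 ± 0.10 with overlap. Of 14 measured transporters, SLC7A11, SLC3A2, SLC1A4 and SLC6A9 were higher without overlap and none lower. SLC3A2, the heavy chain shared by several exchangers, read 10.92, 10.81 and 10.67 untreated and 11.31, 11.16 and 11.02 treated (0.36 ± 0.10). Of 17 measured aminoacyl-tRNA synthetases, CARS1, SARS1 and WARS1 were higher without overlap and none lower. CARS1, the cysteine enzyme, had the largest value of that list, 0.46 ± 0.12 (adjusted p = 0.611). The 3 synthetases with a promoter match, AARS1, IARS1 and NARS1, had log2 fold changes of 0.24, 0.04 and 0.05, all with overlap. Overlap was also seen in the matched genes PPP1R15B (0.14), GOT1 (0.20), SLC7A1 (-0.01), SLC1A5 (0.15) and SLC38A1 (0.19).

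Stress lists of other compartments showed few such members. Of 19 endoplasmic reticulum chaperones and sensors only EDEM1 was higher without overlap and none was lower, and HSPA5 (BiP), the main chaperone there, had a log2 fold change of 0.04 ± 0.08. Of 24 mitochondrial ribosome and translation genes 1 was higher (MRPS9) and 2 were lower (MRPS2, GFM1) without overlap, with a list median of 0.01. None of 27 nuclear-encoded respiratory chain genes was without overlap. Of 19 mitochondrial chaperones and proteases FGF21 was higher and DNAJA3 and OMA1 were lower. OMA1, the inner membrane protease that relays mitochondrial stress, read 10.42, 10.22 and 10.54 untreated and 10.13, 9.82 and 10.21 treated (-0.34 ± 0.13). FGF21, a secreted ATF4 target listed there as a mitochondrial stress hormone, had 1.61 ± 0.64 over a dim untreated group of 6.57, 3.81 and 6.45. Its untreated mean of 5.61 was below the table's median, so FGF21 counted as measured only through its treated arrays (mean 7.22). The 15 mitochondrially encoded genes had no probe set with 1 matching symbol. All 21 measured cytosolic ribosomal protein genes had positive values, with a median of 0.08 and overlap in every one.

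Annexins and S100 proteins, which bind calcium and membranes, had 6 of 13 measured members higher without overlap (ANXA1, ANXA2, ANXA3, ANXA7, S100A10 and S100A13) and none lower. A positive value was seen in 8 of the 13. The list's median was 0.09 when all probe sets of a gene were averaged, and without treated replicate 2 the members with an unadjusted p under 0.05 numbered 2 in place of 5. S100A10, the partner of ANXA2, read 13.47, 13.47 and 13.43 untreated and 13.76, 13.66 and 13.69 treated (log2 fold change 0.25 ± 0.08), and ANXA2 differed by 0.23 ± 0.09. Among single genes of other lists, HMOX1, the haem-degrading enzyme, read 9.39, 9.17 and 9.73 untreated and 10.05, 10.04 and 10.22 treated (0.68 ± 0.14, adjusted p = 0.396). MAP2, a microtubule protein of dendrites, read 7.83, 7.85 and 8.43 untreated and 8.99, 9.13 and 8.90 treated (0.97 ± 0.18, adjusted p = 0.344). HDAC5, a class II histone deacetylase, read 8.44, 8.84 and 8.84 untreated and 9.18, 9.52 and 9.70 treated (0.76 ± 0.16, adjusted p = 0.465). None of these groups overlapped.

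The lists closest to TRPM7's own ions showed small values. Of 16 measured genes of magnesium transport and the channel-kinases, NIPAL3 alone was lower without overlap, none was higher, 3 had a positive value and the median was -0.07. MAGT1, a protein linked to magnesium uptake, read 12.75, 12.76 and 12.97 untreated and 12.29, 12.47 and 12.76 treated, with overlap (log2 fold change -0.32 ± 0.12). Of 18 zinc transporters and metallothioneins, MT1X and SLC30A6 were lower without overlap. MT1X, a zinc-buffering metallothionein, read 11.24, 11.23 and 11.40 untreated and 11.04, 10.98 and 11.16 treated (-0.23 ± 0.09, adjusted p = 0.761). Of 15 calcium entry, store and pump genes, ITPR3 was higher and ATP2B1 lower without overlap. Proliferation genes were close to 0 as well, with medians of 0.01 for 28 mitotic and 0.02 for 24 DNA replication genes.

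**Figure D4:**
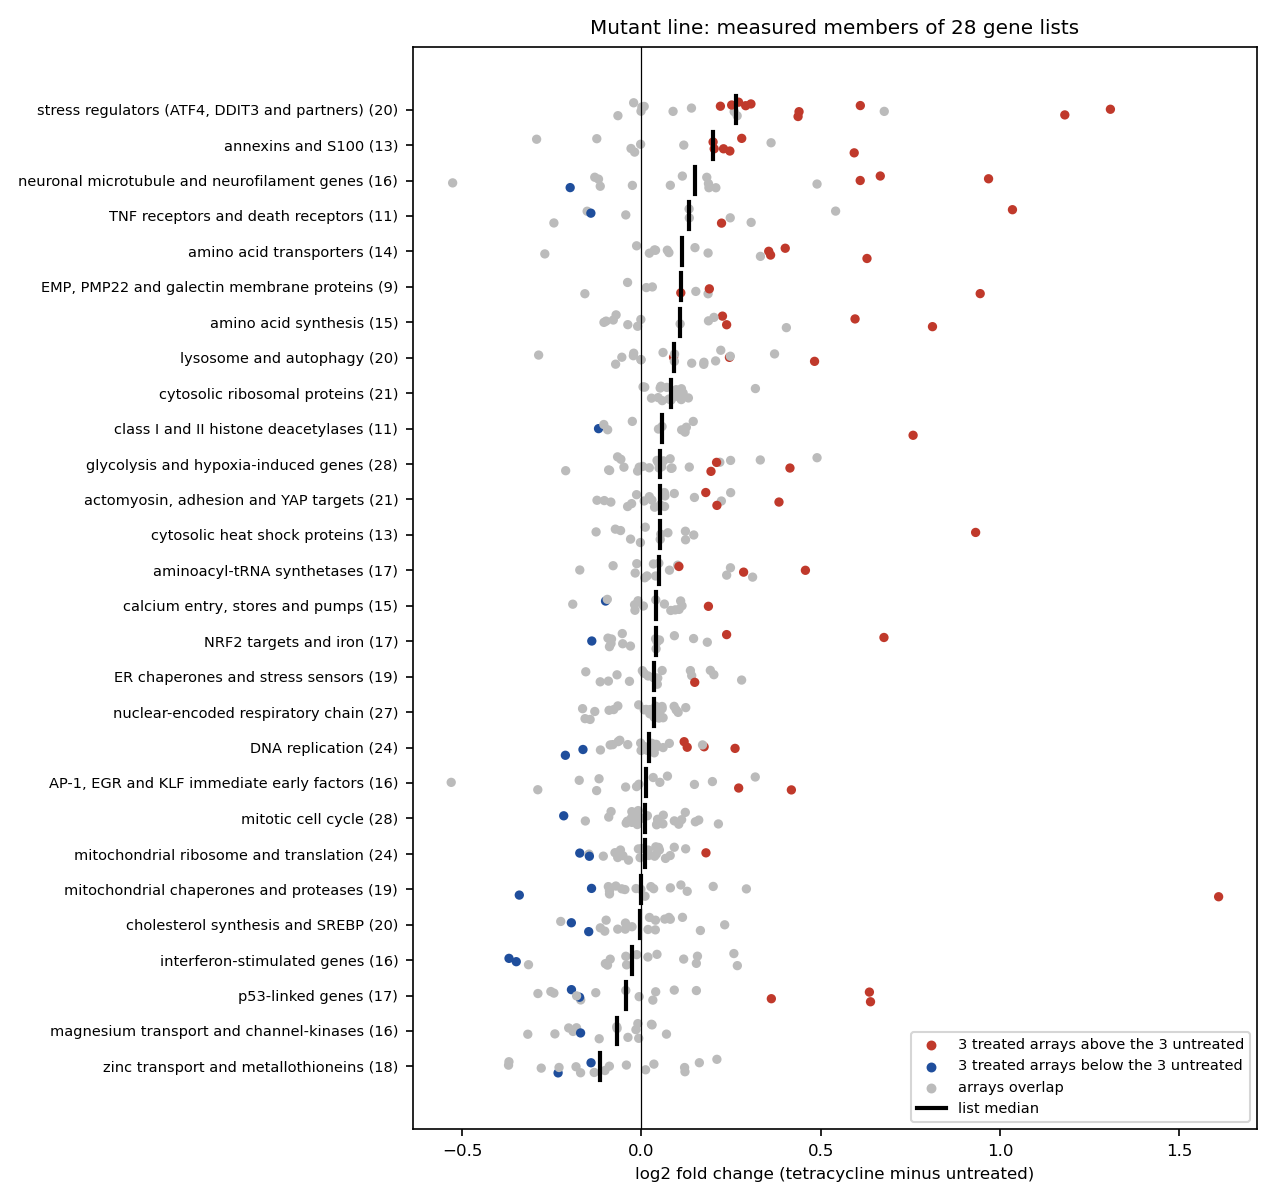
Log2 fold change (horizontal axis, tetracycline minus untreated) of each measured member of 28 gene lists in the mutant line, with the number of members in brackets and the median as a bar. Red and blue points are members whose 3 treated arrays all lie above or below the untreated ones. The median of the stress regulators is 0.26, and 20 medians lie within 0.1 of 0.

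The WT line shares no array with these comparisons, so it gives the same measure in samples the selection did not use. Among the 26800 probe sets above the table's median in the mutant arrays, 63.0% had the same sign in both lines. Of these 26800, 13.4% were higher and 13.7% lower without overlap in the WT line. Of the 12 higher genes, 12 had the same sign there, 11 were higher without overlap, and 9 rose at an adjusted p under 0.05 in limma, against 723 of all 54613 probe sets called in that line (1.32%). PPP1R15A rose by 2.40 ± 0.22, HSPB8 by 2.42 ± 0.35, TNFRSF12A by 2.17 ± 0.31, ATF3 by 2.03 ± 0.20, EMP3 by 1.76 ± 0.24 and CTH by 1.60 ± 0.21 on the log2 scale. INHBE (1.23 ± 0.55) and SLC7A11 (1.29 ± 0.35) were higher without passing the test, and ASS1 had 0.17 ± 0.40 with overlap. The WT fold change was larger than that of the mutant line in 10 of the 12. The difference itself, tested over all 12 arrays, passed in none of them, with adjusted p-values from 0.0594 (ATF3) to 0.966 (INHBE), and 9 had an unadjusted p under 0.05.

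Of the 12 lower genes, 12 had the same sign in the WT line, 10 were lower without overlap (13.7% of all probe sets above the median) and 6 fell at an adjusted p under 0.05. PTP4A2 fell by 1.61 ± 0.17 and CYFIP2 by 2.87 ± 0.43 on the log2 scale there. KPNB1 did not follow, at -0.08 ± 0.24 with an adjusted p of 0.930, against -0.73 ± 0.10 in the mutant line. The test of that difference gave an adjusted p of 0.430. HSPA4 had the lowest WT value, -4.06 ± 0.91, in a probe set that was 3.98 ± 2.19 in treated WT cells. The difference between the lines again passed for none of the 12 (adjusted p 0.0691 to 0.987). The list of stress regulators, chosen with earlier results of these data known, had a WT median of 0.72. Of its 20 members 6 were called higher, against 1.32% of all probe sets called in either direction in that line.

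**Figure D5:**
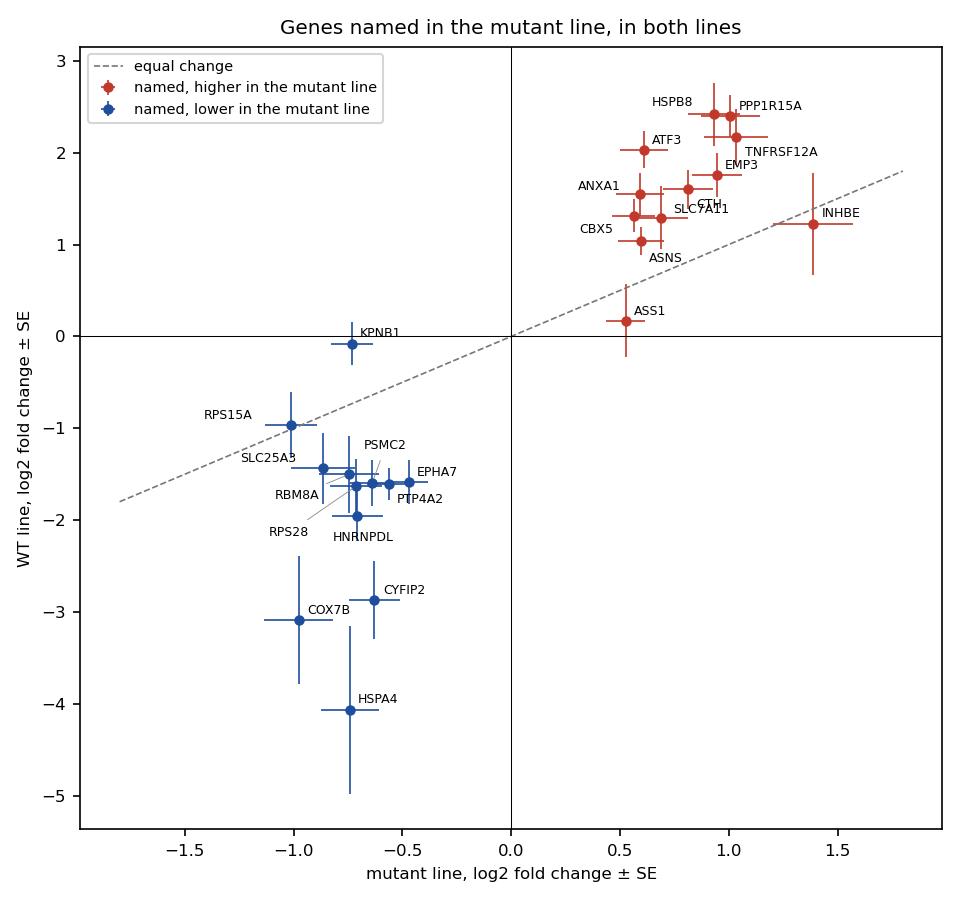
Log2 fold change ± SE of the genes named from the mutant line, in the mutant line (horizontal axis) and in the WT line (vertical axis), with the line of equal change dashed. All share their sign in both lines, and 10 of the 12 red and 10 of the 12 blue points lie farther from 0 in the WT line.

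Across probe sets brighter than the table's median in the mutant arrays, the fold changes of both lines had a Pearson r of 0.352. Over all 54613 probe sets r was 0.059, and in the 14047 above the 75th percentile it was 0.516. These are descriptions across probe sets, which are not independent. The SD of the fold changes above the median was 0.236 in the mutant line and 0.642 in the WT line. The test of the difference between the lines called 8 probe sets of 54613 (0.0146%), of which 6 had the more positive value in the mutant line and 2 the more negative. Leaving out 1 array at a time moved that number between 0 and 2056, the latter without WT tetracycline replicate 1, and it was 0 without any 1 of the mutant arrays.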

How the data were processed

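Total RNA was extracted with Trizol and hybridised to Affymetrix arrays, 1 array per sample, per the labels. The values deposited by the authors are MAS5 signals, a linear intensity per probe set, per the submitters' processing notes. The MAS5 version and settings are not given in the sources used here. The mean signal of every array, trimmed by 2% at each end, was 500, so arrays had been scaled to a common mean. Signals under 1 (2211 values, 0.337%) were set to 1 before log2. The 62 AFFX control probe sets were kept out of the tests, leaving 54613, of which 41091 had 1 gene symbol in the platform annotation, 1801 several and 11721 none. The depth of array data has no read count, and the number of arrays (3 per group) limits the precision.

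A model with a mean per group was fitted to the mutant arrays in limma (version 3.58.1, R version 4.3.3), using eBayes with a trend and Benjamini-Hochberg adjustment, 2-sided. The WT arrays were fitted alone in the same way, and the difference between the lines was tested on all 12 arrays. Named genes were, among probe sets with 1 symbol and a mean above the table's median, the 12 with the smallest p in each direction (1 probe set per gene), every TRPM7 probe set, and up to 4 genes per list by p. Further members are named from counts or roles after their values were seen. The members and lists were chosen with earlier results of these data known. The scripts were tested on simulated data. Filters, offset, quantile normalization, variance trend, array weights, a replicate block and left-out arrays were tried as alternatives. Plots used matplotlib (version 3.10.9, Python version 3.11.15).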

Additional observations from a re-analysis of the deposited data

How the results depend on the processing

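The count of 0 called probe sets in the mutant line (3369 at an unadjusted p under 0.05) was the same in 14 of 15 alternatives, with smallest adjusted p-values in limma of 0.0532 (only probe sets above the median), 0.0566 (above the 75th percentile), 0.0578 (no variance trend), 0.0613 (array weights), 0.098 (quantile normalization), 0.1046 (an offset of 16), 0.153 (replicate 3 of both groups left out), 1 (all 12 arrays) and 0.0543 to 0.590 with 1 array left out. The exception was the replicate block. The groups share replicate numbers, but same-numbered arrays deviated together only weakly over all probe sets (r = 0.035, 0.0076 and 0.058), so the numbers were not taken as pairs. As a hint from the data, each array still correlated best with its own number over all probe sets, where other pairs reached at most 0.00745. The same held above the 75th percentile, with r of 0.458, 0.231 and 0.618. Above the table's median r was 0.215, 0.064 and 0.338, and it did not hold for every array. With the block 44 probe sets were called, 25 higher and 19 lower, among them 11 of the 12 named higher and 7 of the 12 named lower ones. The difference of inductions between the lines, 8 calls, became 418 with the replicate block, 638 with array weights, 40 above the median, 59 above the 75th percentile, 13 with the offset, 2 without the trend, 0 with quantile normalization, and 0 to 2056 with 1 array left out. The cause was not tested. All 74 followed probe sets kept their sign in 1094 of 1094 refits, but this was largely fixed in advance. Filters, variance trend, a fit of all 12 arrays and the block cannot change a fold change in this balanced design. A left-out array cannot reverse the sign of a probe set without overlap. The kept signs therefore do not measure robustness. Of 336 list medians, 38 moved by more than their spread between replicates. With 3 arrays per group, probe sets below the table's median are the least certain.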

Other observations

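Several genes not written into the lists of stress regulators, amino acid synthesis, amino acid transporters and synthetases had treated arrays that all lay above the untreated ones. They were named by a small p within other lists. Among all 12254 measured genes, 932 (7.61%) were higher and 589 (4.81%) lower without overlap. JUN, an AP-1 transcription factor, read 12.77, 12.82 and 13.15 untreated and 13.42, 13.21 and 13.36 treated (log2 fold change 0.42 ± 0.11, adjusted p = 0.611 in limma), and its relative JUND differed by 0.27 ± 0.08. GADD45A, a growth arrest gene, read 11.77, 11.85 and 11.66 untreated and 12.28, 12.18 and 11.91 treated (0.36 ± 0.10), while MDM2, the p53 ubiquitin ligase, had -0.29 ± 0.11 with overlap. FTL, the ferritin light chain, was 13.16 ± 0.01 untreated and 13.40 ± 0.07 treated. ZYX, the focal adhesion protein zyxin, differed by 0.38 ± 0.12, SLC2A3, a glucose transporter, by 0.41 ± 0.11, and WIPI1, an autophagosome protein, by 0.48 ± 0.15. Lower without overlap were the mitotic kinesin KIF11 (-0.22 ± 0.08), the interferon-induced IFITM1 (-0.37 ± 0.12) and the neural cadherin CDH2 (-0.24 ± 0.09). None of these passed the test without a replicate block across all probe sets.

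The split between the brightest and the other probe sets of a gene was also present outside the named genes. In the 6347 genes with at least 2 measured probe sets, 7.20% of the brightest were higher and 5.34% lower without overlap in the mutant line. Of their 10888 other probe sets, 6.53% were higher and 8.11% lower. In the WT line the shares were 15.6% and 14.2% for the brightest and 12.2% and 15.3% for the others. The other probe sets had a median log2 signal of 8.55 against 10.09. The part of signal level in these shares was not tested, and probe sets of 1 gene share their RNA.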
